A study of Homo sapiens with 8 samples.

Results

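The comparison concerns 2 single-array measurements of the same cells: parental H3122 cells given ceritinib and parental H3122 cells given crizotinib, 2 of the 8 arrays of the series. They were chosen by their sample labels, and the quantity described is the ceritinib signal minus the crizotinib signal of each gene. H3122 is a human lung adenocarcinoma line that carries the EML4-ALK fusion, and the derivatives LR2 and LR3 are resistant to ceritinib. Both agents were given at 1000 nM for 6 h to parental and to LR2 cells, LR3 cells received ceritinib alone, and each line was also measured untreated. Every array was of total RNA from cells grown in serum-containing RPMI medium, and all 3 lines carry the fusion per the labels. The labels do not say whether the untreated cells received vehicle, whether LR2 and LR3 are clones, or whether the cultures were grown side by side. Each condition had 1 array, so a difference between the 2 parental arrays has no replicate check. It is given as a size, and the number of arrays limits its precision.

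The EML4-ALK fusion joins the ALK kinase to a partner that makes it self-associate, which keeps the kinase active without a ligand. Its main output in these tumour cells runs through RAS, RAF, MEK and ERK, and ERK activity drives transcription of a compact set of genes, many of which encode inhibitors of the same pathway. Crizotinib, built on an aminopyridine core, also inhibits MET and ROS1. Ceritinib, built on a diaminopyrimidine core, also inhibits IGF1R and the insulin receptor. A comparison at matched dose and time asks where the 2 agents differ once the kinase they share is blocked by both.

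Values are log2 signals, and a log2 difference of 1 is a factor of 2. Of 18132 genes with a probe set, 10527 were bright enough to use, meaning above 5.36, the 50th percentile of all deposited signals, in at least 2 arrays. The median of the differences over all 18132 genes, -0.02, was subtracted from each difference. Epithelial identity was clear in both arrays: the 6 epithelial markers had signals from 10.45 to 13.70. NKX2-1, the transcription factor of lung epithelium, was at 11.08 with crizotinib and 11.25 with ceritinib, and ALK was at 7.39 and 7.23. None of 6 fibroblast markers and none of 5 leukocyte markers was above 5.36. Of 4 endothelial markers, CDH5 (6.43 with crizotinib and 6.14 with ceritinib) and KDR (6.52 and 6.49) were above it in both arrays. VWF (5.21 and 5.57) was above it with ceritinib alone, and PECAM1 (4.76 and 4.71) with neither. In RNA from bulk cultures, fewer cells of a type and less RNA per cell cannot be told apart.

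The ceritinib and crizotinib arrays of parental cells were the most alike of all 28 pairs of arrays. Across the 10527 genes their levels had a Pearson correlation of 0.9966, given as a description across genes that share the 2 libraries. The SD of their differences was 0.143, the median size was 0.08, and 93.7% of genes lay within 1.2-fold. The next smallest SD, 0.168, was that of untreated and ceritinib-treated LR2 cells. The untreated and ceritinib-treated LR3 arrays followed with 0.18, and the ceritinib and crizotinib arrays of LR2 with 0.232. Each parental inhibitor array differed from the untreated parental array with an SD of 0.324. The plot of SDs over all pairs of arrays shows this order.

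**Figure D1:**
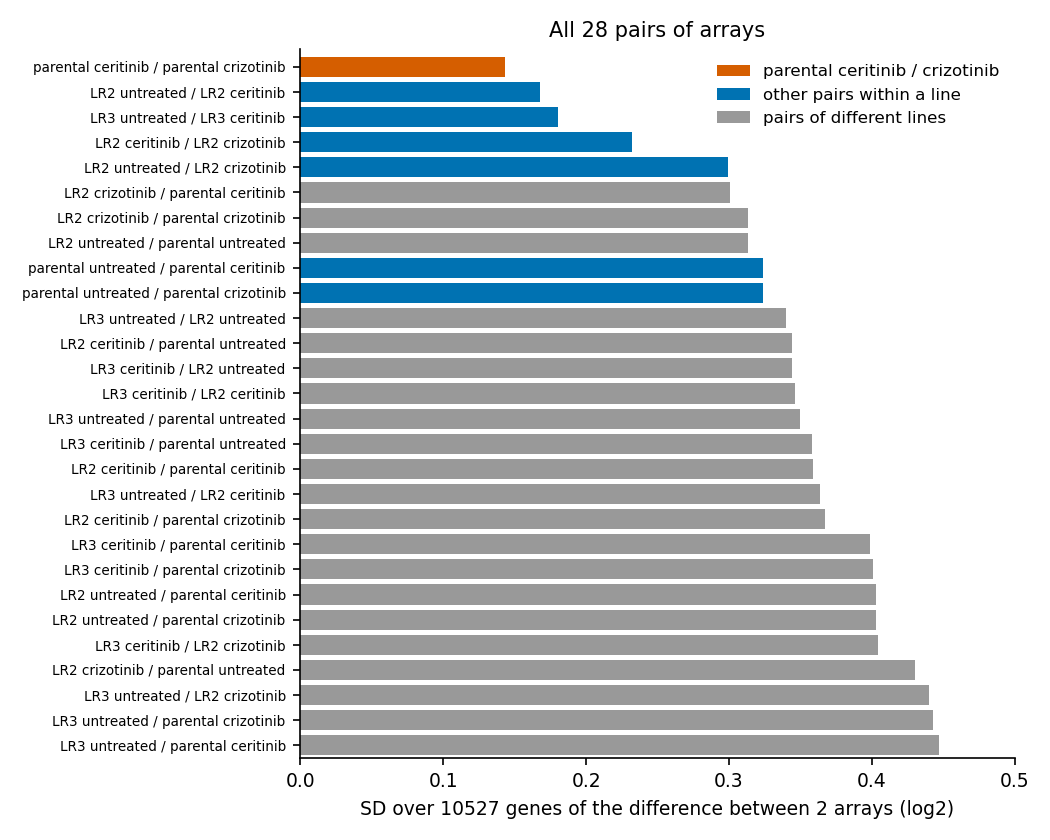
Horizontal bars give, for each of the 28 pairs of the 8 arrays, the SD over 10527 genes of the difference between the 2 arrays in log2 units, with the most alike pair at the top. The parental ceritinib and crizotinib pair (orange) has the smallest SD, 0.143, below the other pairs within a line (blue) and the pairs of different lines (grey).

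Differences of 1.5-fold or more between the 2 agents were few. There were 38 such genes, or 0.361% of those tested. Of these, 29 genes (0.275%) were higher with ceritinib and 9 (0.0855%) were higher with crizotinib. Only CSAD and AHSA2P passed 2-fold (2 genes, 0.019%), and both lay below 5.36 with crizotinib. The difference of CSAD, an enzyme of taurine synthesis, was 1.16 between signals of 4.41 with crizotinib and 5.55 with ceritinib, and its other 2 probe sets gave 0.01 and -0.26. Just inside the 1.5-fold limit stood SLC2A12 and FGFBP1 at -0.59 and PTCRA at 0.60. Just outside it stood EGR1 at -0.57 and CCNL2 and H1-3 at 0.58. The scatter was wider among dim genes: the SD was 0.19 for the 1738 genes with a mean signal under 6 and 0.109 for the 1125 genes with a mean signal over 10.

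**Figure D2:**
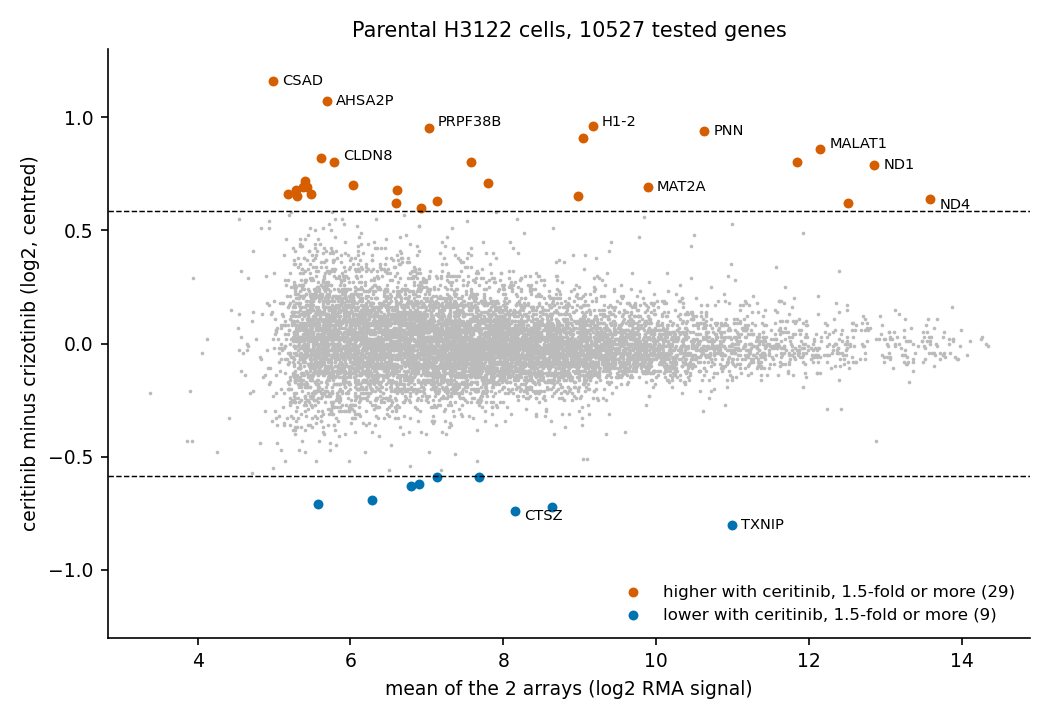
Each point is 1 of 10527 genes, placed by its mean signal in the 2 parental inhibitor arrays (x axis, log2) and by ceritinib minus crizotinib (y axis, log2, centred). Dashed lines mark 1.5-fold, 29 orange genes lie at or above the upper line and 9 blue genes at or below the lower one, and CSAD at 1.16 and TXNIP at -0.80 are the extremes.

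The genes with the clearest loss of signal under both agents were those downstream of ERK. Of 30 listed ERK output genes 26 were bright enough, and 25 of the 26 were at least 1.5-fold lower with crizotinib than in untreated cells. The count with ceritinib was also 25 of 26. Over all genes 297 (2.82%) were lower to that extent with crizotinib and 322 (3.06%) with ceritinib, while 314 (2.98%) and 287 (2.73%) were higher. The list medians were -1.575 for crizotinib and -1.68 for ceritinib. These 2 comparisons share the untreated array, so only their values are set side by side. Between the agents the list median was -0.02, none of the 26 genes reached 1.5-fold, 15 differences were negative, 8 positive and 3 zero. The median over all genes was -0.01, with 5360 negative and 4823 positive.

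DUSP6, the phosphatase that removes the activating phosphates of ERK, had signals of 12.41 untreated, 7.93 with crizotinib and 7.39 with ceritinib. Both inhibitor arrays were far below the untreated array, and the ceritinib array was lower than the crizotinib array by a difference of -0.52. All 4 DUSP6 probe sets above the floor had that sign, from -0.52 to -0.33. This is the widest gap between the agents among the 19 ERK output genes above the floor with both, and 17 of the 19 differed by less than 0.2.

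The cyclin CCND1, which carries cells into the cell cycle, was at 12.19 untreated, 10.50 with crizotinib and 10.49 with ceritinib, a difference between agents of 0.01. MYC, the growth transcription factor, was at 10.22, 9.28 and 9.28 in the same order. The signals of SPRY2, a Sprouty inhibitor of receptor signalling, were 8.58, 7.07 and 7.03. For these 3 genes the 2 inhibitor arrays were nearly equal, and both lay well below the untreated one. The ETS factor ETV5 was at 8.01, 6.41 and 6.37, and its relative ETV4 was at 7.94, 7.58 and 7.56. PHLDA1, a feedback inhibitor of AKT, was at 9.70, 6.62 and 6.47. FOS, a subunit of the AP-1 factor, was listed with the immediate early genes and differed between the agents by -0.05.

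**Figure D3:**
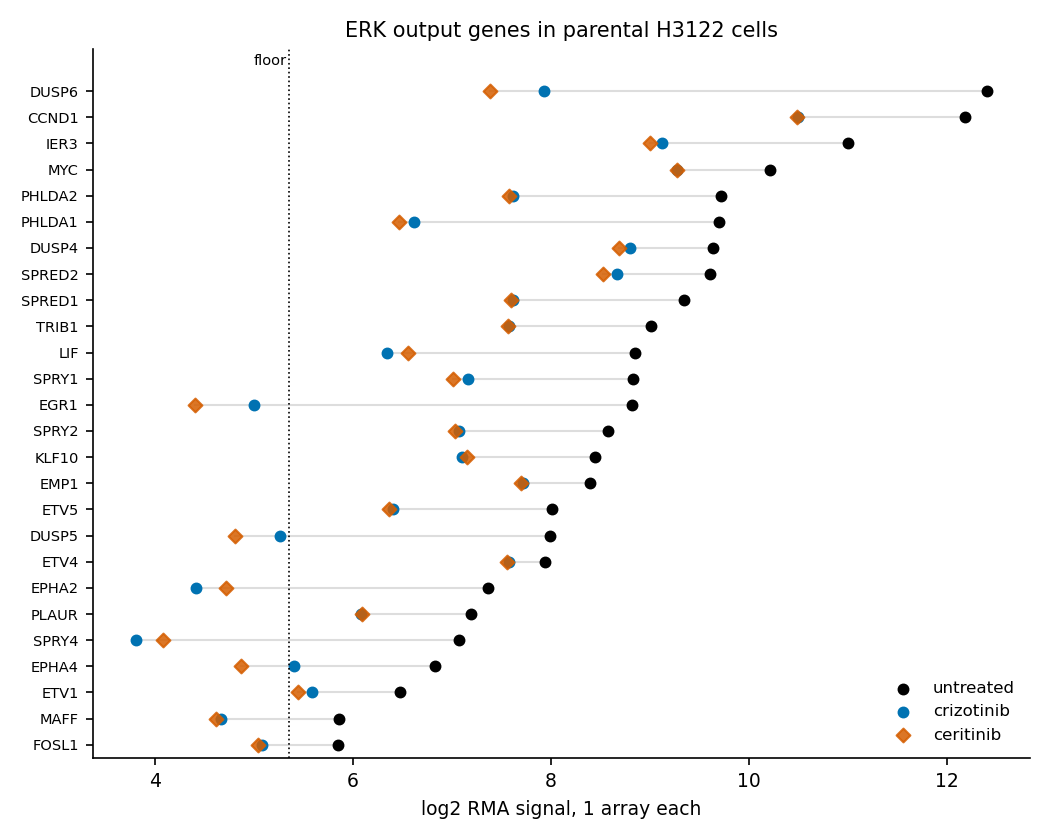
Signals (x axis, log2, 1 array each) of the 26 ERK output genes in untreated parental cells (black), with crizotinib (blue) and with ceritinib (orange diamonds); the dotted line is the floor of 5.36. The untreated signal is the highest for each of the 26 genes, and the crizotinib and ceritinib signals nearly coincide except for DUSP6 and genes close to or below the floor.

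Apart from DUSP6, the larger gaps in this list belonged to genes at or below the floor in at least 1 inhibitor array. EGR1, an immediate early zinc finger factor, was at 8.82 untreated, 5.0 with crizotinib and 4.41 with ceritinib, a difference of -0.57 between 2 signals under the floor. DUSP5, a nuclear ERK phosphatase, was at 7.99, 5.27 and 4.81. The ephrin receptor EPHA4 was at 6.83, 5.41 and 4.87, below the floor with ceritinib alone. In the other direction, SPRY4 was at 7.07, 3.81 and 4.08, and EPHA2 at 7.37, 4.42 and 4.72. In all, 6 of the 26 genes were at or below the floor in both inhibitor arrays, where sizes and signs are uncertain.

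The EGR1 promoter shows the kind of sequence through which ERK reaches an immediate early gene. Serum response factor and its ERK-phosphorylated partners bind the CArG box, and the 250 bases upstream of the EGR1 start hold 2 of them on the plus strand of chromosome 5 (chr5:138465229-138465478, GRCh38.p14, RefSeq). They begin 105 and 83 bases before the start and are in capitals. Both strands were searched, and 1.16% of 35116 RefSeq promoters of that length hold a CArG box.
EGR1: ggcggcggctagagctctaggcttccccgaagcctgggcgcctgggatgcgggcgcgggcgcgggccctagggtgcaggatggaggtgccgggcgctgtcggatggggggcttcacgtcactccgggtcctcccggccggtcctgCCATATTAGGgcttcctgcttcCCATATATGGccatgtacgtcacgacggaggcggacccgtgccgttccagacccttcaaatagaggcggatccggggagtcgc
A match describes letters in a window and is no measurement of binding.

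The RNAs of the receptors on which the agents differ in biochemical selectivity differed little between the 2 arrays. MET, the hepatocyte growth factor receptor and a direct target of crizotinib, was at 9.53 in both inhibitor arrays and at 10.01 untreated. That is a difference of 0.02 on its brightest probe set, and its other usable probe sets ran from -0.18 to -0.14. IGF1R was at 8.09 with crizotinib, 8.19 with ceritinib and 7.80 untreated. ALK differed by -0.14 on its brighter probe set and by 0 on the other. The insulin receptor gene INSR was too dim to use. Of the 10 usable receptors and kinases listed as targets of either agent, none reached 1.5-fold, 9 were positive and 1 negative, and the median was 0.115, the highest of the 35 planned lists with at least 5 usable genes. FGFR3 had the largest difference, 0.30, from 7.40 to 7.68.

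Genes that lost or gained RNA under both agents had similar median responses to the 2 agents. They were chosen by the mean of both responses against untreated cells, so their fall or rise is not a finding. In the 87 genes (0.826%) with a mean at least 2-fold below untreated, the median response was -1.37 with crizotinib and -1.47 with ceritinib. The median difference between agents was -0.03, and 1 gene reached 1.5-fold in each direction. In the 60 genes (0.57%) with a mean at least 2-fold above, the medians were 1.195 and 1.175. Their median difference was -0.045, again with 1 gene in each direction. Over all tested genes 0.275% were at least 1.5-fold higher with ceritinib and 0.0855% lower. Single genes of the 2 sets differed more than others: the SD of the differences was 0.253 in the 87 and 0.223 in the 60. It was 0.141 in the other 10380 genes.

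The gene highest with ceritinib among those bright in both arrays was the linker histone H1-2, a protein that compacts nucleosomes. Its signal was 8.70 with crizotinib, 9.64 with ceritinib and 9.20 untreated, a difference of 0.96 or 1.95-fold. H1-2 was read from its only probe set, which has a suffix that marks possible cross-reaction. The share of related transcripts in that signal was not tested. The crizotinib array was the lowest of the 8 arrays for H1-2, and the ceritinib array was the highest. Other linker histones had the same sign, H1-3 at 0.58 and H1-4 at 0.45. Over 16 usable histone genes, a list put together after these values were seen, the median was 0.155, with 12 positive and 4 negative. Only H1-2 in it passed 1.5-fold, as did 0.361% of all tested genes.

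Several other genes higher with ceritinib encode splicing or nuclear speckle proteins, and they were picked out after their values were seen. PNN, the speckle protein pinin, was at 10.17 with crizotinib, 11.09 with ceritinib and 10.90 untreated, a difference of 0.94. Its 5 signals in the resistant lines ran from 10.94 to 11.75, so the crizotinib array was the lowest of all 8. All 6 PNN probe sets above the floor were positive, from 0.41 to 1.08. PNISR, a serine and arginine-rich protein that interacts with pinin, was at 8.60, 9.49 and 8.94 in the same order, with 8 of 9 probe sets positive. The crizotinib array was again below all others. PRPF38B, a splicing factor, was at 6.56, 7.49 and 7.07, and its 3 probe sets ranged from 0.24 to 0.95.

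MALAT1, a long noncoding RNA that sits in nuclear speckles, was at 11.73 with crizotinib, 12.57 with ceritinib and 12.23 untreated. Its 5 other arrays ran from 12.20 to 12.66. RSRP1 was at 7.46, 8.15 and 7.80, with all 4 probe sets positive from 0.37 to 0.96. The helicase DDX39B, which couples splicing to export, differed by 0.62, and the cyclin CCNL2, which pairs with splicing kinases, by 0.58. ARGLU1, a splicing regulator of the speckle, differed by 0.53 with all 4 probe sets positive. A list of 60 splicing and speckle genes was assembled afterwards, so its counts are a description. Of its 54 usable members 6 were past 1.5-fold, all higher with ceritinib, the median was 0.065, and 35 were positive and 17 negative. Over all tested genes 0.275% were higher to that extent and 0.0855% lower, with 4823 positive and 5360 negative. Because the list was drawn from these same values, its counts cannot be weighed against those shares. Classical serine and arginine-rich factors were not among the 6: SRSF1 differed by -0.14, SRSF3 by -0.13 and SRSF7 by -0.16.

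Probe sets of 1 gene disagreed for some of these genes. HNRNPM, an RNA-binding protein of the spliceosome, was at 11.46 with crizotinib, 12.24 with ceritinib and 11.96 untreated on its brightest probe set, a difference of 0.80. The other 2 HNRNPM probe sets each gave -0.02. CCNL1, the relative of CCNL2, differed by -0.06 on its brightest probe set and by up to 1.24 on others. The brightest HNRNPM probe set has a suffix that marks possible cross-reaction, and it ran parallel to the probe set of the mitochondrial gene ND1. The ND1 signals were 12.47 with crizotinib, 13.24 with ceritinib and 13.02 untreated. The 0.80 is therefore not taken as a value of HNRNPM RNA. Probe sets can read different stretches of a transcript or other transcripts, and what each one reads was not analysed here.

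The 3 usable mitochondrially encoded genes were also higher with ceritinib, and this list too was drawn up after the values were seen. ND1, a subunit of respiratory complex I, was at 12.47 with crizotinib, 13.24 with ceritinib and 13.02 untreated. ND4, of the same complex, was at 13.28, 13.90 and 13.87. For ND1 and ND4 the only probe set has a suffix that marks possible cross-reaction. COX3, a subunit of cytochrome c oxidase, was at 12.21, 12.81 and 12.69, a difference of 0.62. That COX3 probe set has such a suffix too, and the other, without it, gave 0.97. For each of the 3 the crizotinib array was the lowest of 8, and the ceritinib array lay between 0.02 and 0.21 above the untreated one after centring. PABPN1, which binds poly(A) tails in the nucleus, was at 7.19, 7.97 and 7.43.

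The 29 genes higher with ceritinib were also read as a set. Their choice used the values of both arrays, so it favours low crizotinib and high ceritinib signals. The crizotinib array was the lowest of 8 for 22 of the 29 (75.9%), against 8.99% of all tested genes. The ceritinib array was the highest of 8 for 6 of them (20.7%, against 8.63%). Their median difference from untreated cells was -0.38 with crizotinib and 0.33 with ceritinib. Of the 29, 19 were above the floor in both arrays, and of 8 genes with at least 2 usable probe sets 6 had 1 sign throughout.

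Technical readings differed between the 2 arrays alongside these genes. The 12 probe sets of poly-A spike-in controls, added to the RNA before labelling, had a median difference of -0.235. Of these probe sets 11 were lower in the ceritinib array. They read only the dap, lys, phe and thr transcripts, some several times, so they are not independent readings. The 18 probe sets of hybridization controls, added after labelling, had a median difference of 0. These read only bioB, bioC, bioD and cre. Probe sets for the GAPDH and ACTB transcripts differed by -0.05 to 0.02. The 18S ribosomal RNA controls, named M10098, differed by -0.61 at the 3' end, 0.34 in the middle and 0.22 at the 5' end. The part of these readings in the differences above was not tested.

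CLDN8 and MAT2A were higher with ceritinib in another pattern. CLDN8, a tight junction claudin, was at 4.64 untreated, 5.39 with crizotinib and 6.17 with ceritinib. Both agents were above the untreated array on this probe set, and ceritinib further above. The untreated signal was below the floor of 5.36 and the crizotinib signal just above it. The other CLDN8 probe set, below the floor with both agents, gave -0.09. MAT2A, which makes the methyl donor S-adenosylmethionine, was at 11.26 untreated, 9.56 with crizotinib and 10.23 with ceritinib. Both agents lay below the untreated array, crizotinib further, and all 6 MAT2A probe sets were positive, from 0.33 to 1.18.

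Among genes higher with crizotinib, TXNIP had the largest difference. TXNIP binds thioredoxin and restrains glucose uptake, and its transcription follows glucose through the factors MondoA and ChREBP. Its signal was 11.40 with crizotinib, 10.58 with ceritinib and 11.23 untreated, a difference of -0.80 or 1.74-fold. The crizotinib array was near the untreated one and the ceritinib array was below both, and the 5 TXNIP probe sets agreed closely, from -0.82 to -0.74. ARRDC4, an arrestin under the same glucose control that was picked out after its value was seen, was at 7.51 untreated, 6.44 with crizotinib and 5.94 with ceritinib, a difference of -0.48. Both agents were lower than untreated for ARRDC4. The relatives ARRDC1, ARRDC2 and ARRDC3 differed by 0.11, 0.14 and 0.22.

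The upstream windows of TXNIP (chr1:145996580-145996829, minus strand) and ARRDC4 (chr15:97960453-97960702, plus strand; both GRCh38.p14, RefSeq) are shown because glucose-responsive elements are made of paired CACGNG half-sites. Capitals mark CACGNG on either strand, so the reverse form appears as CGCGTG, and in ARRDC4 a forward and a reverse match overlap. TXNIP has 4 matches, of which the CACGAG pair begins 88 and 77 bases before the start, and ARRDC4 has 3. The motif occurs in 26.7% of RefSeq promoters of this length, so its presence alone is common.
TXNIP: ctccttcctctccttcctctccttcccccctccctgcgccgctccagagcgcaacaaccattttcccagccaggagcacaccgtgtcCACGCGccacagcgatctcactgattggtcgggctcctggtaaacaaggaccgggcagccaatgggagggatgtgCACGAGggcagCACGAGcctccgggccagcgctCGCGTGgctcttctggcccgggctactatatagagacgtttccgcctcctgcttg
ARRDC4: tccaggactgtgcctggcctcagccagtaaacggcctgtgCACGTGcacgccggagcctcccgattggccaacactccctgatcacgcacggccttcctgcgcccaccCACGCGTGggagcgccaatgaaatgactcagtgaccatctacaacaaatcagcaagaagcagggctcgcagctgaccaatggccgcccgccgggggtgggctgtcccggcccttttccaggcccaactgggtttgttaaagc
Nothing about binding or glucose was measured here.

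The other genes past 1.5-fold in this direction have varied roles. CTSZ, a lysosomal cysteine protease, was at 8.54 with crizotinib, 7.78 with ceritinib and 7.68 untreated, so only the crizotinib array stood apart. PPP3R1, the regulatory subunit of calcineurin, was at 9.01, 8.27 and 8.64, with all 4 probe sets negative from -0.72 to -0.50. RALGAPA2, which inactivates RAL GTPases, was at 6.64, 5.93 and 5.86. SNAPC3, of the complex that transcribes small nuclear RNA genes, was at 7.12, 6.47 and 6.22 on its brightest probe set, and its 4 usable probe sets ran from -0.63 to -0.13. COPG2, of the vesicle coat COPI, was at 7.22, 6.58 and 6.43, with both probe sets negative.

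SLC2A12, a glucose transporter, was at 5.10 untreated, 7.44 with crizotinib and 6.83 with ceritinib. Both agents were far above the untreated array, and crizotinib further. FGFBP1, which releases fibroblast growth factors from the matrix, was at 8.83, 7.99 and 7.38, so both agents were below untreated and ceritinib further. TIMP3, an inhibitor of matrix proteases, was at 6.09, 5.94 and 5.21, below the floor with ceritinib, and its other usable probe set gave -0.18. Across the 9 genes the crizotinib array was the highest of 8 for 6 (66.7%, against 14.2% of all genes), although the choice of these genes used that array's value. Just short of the limit were CCDC71 at -0.56, the peptide transporter TAP2 at -0.56 with 3 of 4 probe sets negative, and the histone demethylase KDM4B at -0.54 with 2 of 3 negative and a median of -0.15.

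**Figure D4:**
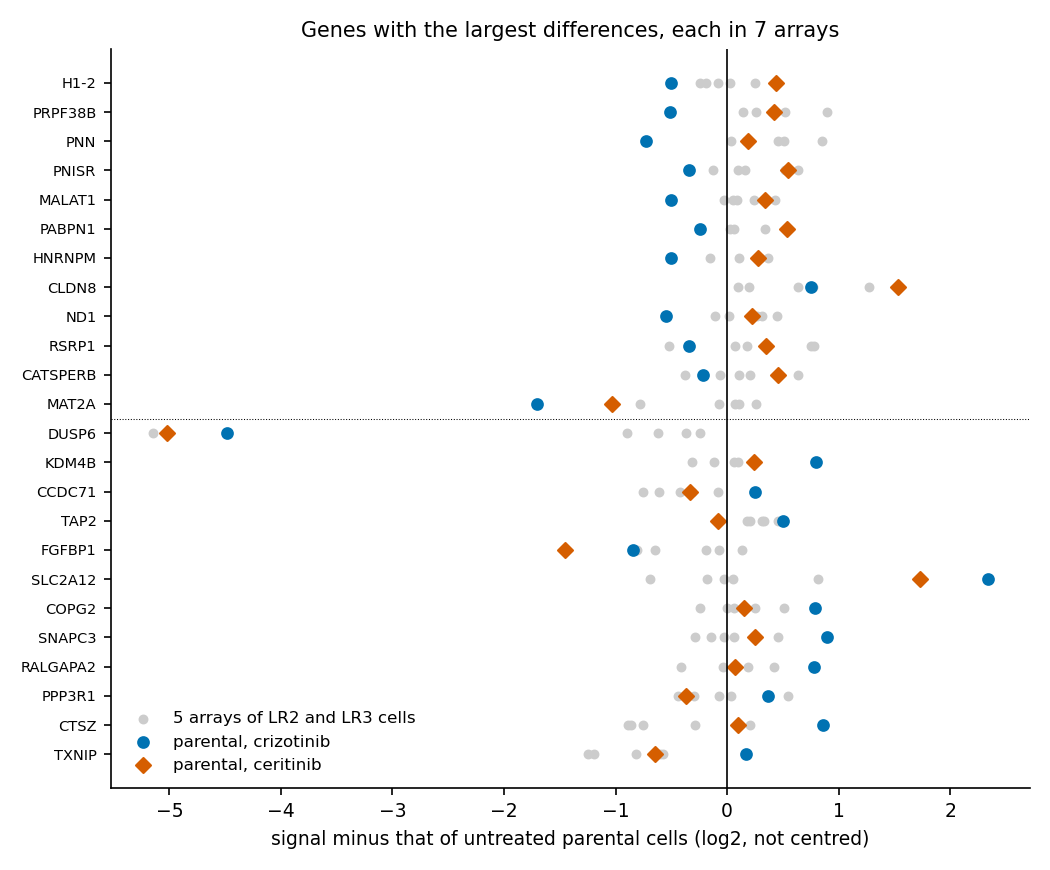
The 12 highest and 12 lowest genes among those above the floor with both agents, each as its signal minus that of untreated parental cells (x axis, log2, not centred) with crizotinib (blue), ceritinib (orange diamonds) and in the 5 arrays of LR2 and LR3 cells (grey). In the upper block the crizotinib point lies left of the grey points for most genes, as for PNN and ND1, while SLC2A12, MAT2A and DUSP6 lie on 1 side of zero with both agents.

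Targets of the aryl hydrocarbon receptor, a sensor of planar aromatic compounds, included several genes with higher signals under crizotinib. Of 13 usable targets 9 were negative, 3 positive and 1 zero, the median was -0.04, and none reached 1.5-fold. CYP1A1, the cytochrome P450 most responsive to this receptor, was at 10.87 untreated, 12.58 with crizotinib and 12.27 with ceritinib, a difference of -0.29. CYP1B1 was at 11.61, 12.40 and 12.09, also -0.29 and negative on all 5 probe sets. TIPARP, which shuts the receptor off, was at 8.79, 9.36 and 8.83, a difference of -0.51. AHRR, another repressor of the receptor, differed by 0 and CYP1A2 by 0.27, so the list was not of 1 sign.

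The receptor and its partner bind a core of GCGTG. The windows upstream of CYP1A1 (chr15:74725529-74725778, minus strand) and TIPARP (chr3:156674340-156674589, plus strand; both GRCh38.p14, RefSeq) are shown to place that core in the 2 genes named above. Capitals mark GCGTG or, on the reverse strand, CACGC. CYP1A1 has 1 match, which begins 57 bases before the start, TIPARP has 2, and 32.2% of RefSeq promoters of this length have at least 1.
CYP1A1: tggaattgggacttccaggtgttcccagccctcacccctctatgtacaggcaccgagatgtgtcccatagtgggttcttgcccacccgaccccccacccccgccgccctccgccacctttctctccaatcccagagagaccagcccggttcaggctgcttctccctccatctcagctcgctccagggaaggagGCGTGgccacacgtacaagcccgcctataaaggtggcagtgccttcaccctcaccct
TIPARP: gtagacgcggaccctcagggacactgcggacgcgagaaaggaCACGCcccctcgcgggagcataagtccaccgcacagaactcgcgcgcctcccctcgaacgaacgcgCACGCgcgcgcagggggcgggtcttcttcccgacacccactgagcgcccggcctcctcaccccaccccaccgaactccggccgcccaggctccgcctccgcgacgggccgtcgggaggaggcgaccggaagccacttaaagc
CYP1A1 also has distal elements that lie outside such a window.

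Cholesterol synthesis genes, driven by SREBP factors, were slightly lower with ceritinib in most cases. Of 29 usable genes 25 were negative and 4 positive, with a median of -0.11 against -0.01 over all genes, and none reached 1.5-fold. SQLE, squalene epoxidase, was at 10.01 with crizotinib, 9.72 with ceritinib and 10.29 untreated, and MVK, mevalonate kinase, at 7.57, 7.26 and 7.43. HMGCS1 was at 10.48, 10.28 and 10.94. SREBF1, which encodes 1 of the SREBP factors, went the other way at 0.17. Heat shock chaperones were similar, with 14 of 16 negative and a median of -0.105, led by BAG3 at -0.24 and DNAJA1 at -0.20. G2/M genes had 30 of 41 negative (median -0.05), and MYC and ribosome biogenesis genes 32 of 42 (median -0.045).

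TGF-beta and BMP targets held 11 positive and 4 negative of 15, with a median of 0.09 and none past 1.5-fold. ID1, an inhibitor of differentiation factors and a direct BMP target, was at 10.49 untreated, 9.57 with crizotinib and 10.11 with ceritinib, a difference of 0.56 with all 3 probe sets positive. SKIL was at 6.07, 5.48 and 5.87, and PMEPA1, an inhibitor of TGF-beta signalling, at 8.44, 7.67 and 8.05. For all 3 the crizotinib array was the lower of the 2 agents. ID2 was equal at 8.0 with both agents and at 6.88 untreated.

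FOXO targets and genes of PI3K feedback, which turn on when AKT is inhibited, had a median difference of 0.03 over 23 usable genes, with TXNIP alone past 1.5-fold. The ubiquitin ligase FBXO32 was at 6.53 untreated, 8.37 with crizotinib and 8.32 with ceritinib, and KLHL24 at 6.64, 8.60 and 8.45. The proapoptotic BCL2L11, or BIM, was at 7.45, 8.20 and 8.23. The signals of these 3 were higher with both agents than in the single untreated array, by similar amounts. ATF4 and amino acid response genes had a median of 0.03 over 28 genes and BCL2 family genes 0.005 over 14. The lysosomal list had GPNMB alone past 1.5-fold, at 4.96 with crizotinib, below the floor, and 5.62 with ceritinib. In all, 31 of the 35 planned lists with at least 5 usable genes had no member past 1.5-fold. Only 0.361% of all tested genes were past it, so a short list without such a gene is the usual case. That holds for each list above with none past 1.5-fold. The medians of the 35 lists ran from -0.11 to 0.115.

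The comparison was set beside that in LR2 cells, which shares no array with it. In LR2, 149 genes (1.42%) were at least 1.5-fold higher with ceritinib than with crizotinib and 78 (0.741%) were lower. Against untreated LR2 cells, 484 genes (4.6%) were past 1.5-fold with crizotinib and 47 (0.446%) with ceritinib. Across 10527 genes the differences of the 2 lines had a Pearson correlation of -0.017 and a Spearman correlation of -0.014, as a description over genes that share 4 arrays. The median difference of the ERK output genes was -0.02 in parental cells and 1.31 in LR2, where 23 of 26 were at least 1.5-fold higher with ceritinib. With 1 array per agent this contrast between the lines was not tested. DUSP6 was at 7.26 with crizotinib and 11.51 with ceritinib in LR2, a difference of 4.17 against -0.52 in parental cells. Of the 87 genes low with both agents in parental cells, 69 were at least 1.5-fold higher with ceritinib in LR2, with a median of 1.05.

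**Figure D5:**
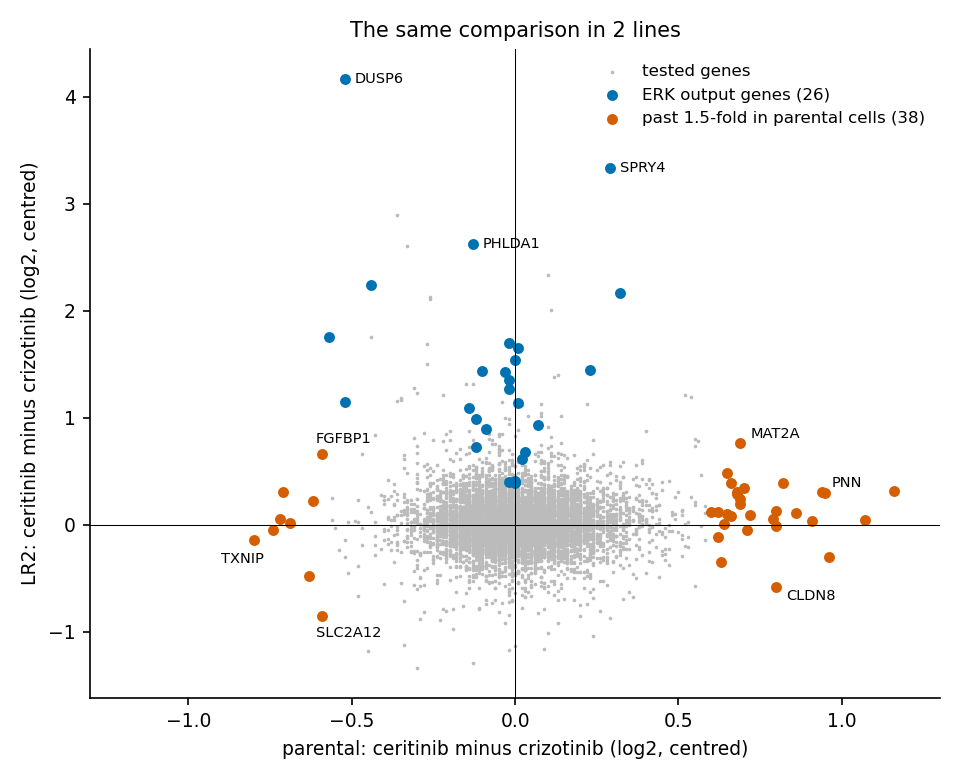
Ceritinib minus crizotinib (log2, centred) in parental cells (x axis) and in LR2 cells (y axis) for 10527 genes, with the 26 ERK output genes in blue and the 38 genes past 1.5-fold in parental cells in orange. The blue points spread upwards near zero on the x axis, up to 4.17 for DUSP6, and the orange points spread sideways with LR2 values from -0.85 to 0.77.

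The genes past 1.5-fold in parental cells were then read in LR2. Of the 29 higher with ceritinib in parental cells, 23 were positive and 6 negative in LR2, with a median of 0.12, against 5264 positive and 5014 negative of all 10527. Of the 9 lower ones, 4 were negative and 5 positive in LR2, with a median of 0.02. Of the 38 genes past 1.5-fold in parental cells, MAT2A and SLC2A12 were past it in LR2 in the same direction, at 0.77 and -0.85, and FGFBP1 in the opposite one, at 0.66. In LR2 cells MAT2A was at 11.37 untreated, 10.48 with crizotinib and 11.33 with ceritinib. SLC2A12 was at 4.92, 5.92 and 5.15 in the same order. For both genes the LR2 ceritinib array lay nearer to the untreated one than the crizotinib array did. With a lower limit of 0.4, 125 genes (1.19%) were higher and 48 (0.456%) lower in parental cells, and 409 (3.89%) and 252 (2.39%) in LR2. Past that limit in both lines were 13 higher genes, ID1, SKIL, PMEPA1 and MAT2A among them, and 6 lower ones, KCNE3, NINL, NR3C1, SLC2A12, SNAPC3 and TIPARP. Genes past 0.4 in opposite directions are not counted here, so these numbers do not measure how far the lines agree. ID1 differed by 0.78 in LR2 and PMEPA1 by 0.88. The LR2 signals of ID1 were 10.59 untreated, 9.42 with crizotinib and 10.28 with ceritinib. NR3C1, the glucocorticoid receptor, was at 8.88 with crizotinib and 8.46 with ceritinib in parental cells and at 8.71 and 8.24 in LR2. CYP1A1 differed by -0.88 in LR2 and CYP1B1 by -0.49. TXNIP (-0.14), PNISR (0.04), MALAT1 (0.11), H1-2 (-0.30) and ND1 (0.06) stayed under 1.5-fold in LR2.

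The only test the design allows pools the lines. An additive limma model, with a term for the line and another for the agent, used all 8 arrays and left 3 residual degrees of freedom. It compared ceritinib with crizotinib across parental and LR2 cells, and the LR3 arrays also entered its estimates. It called 0 of 10527 genes (0%) at an adjusted p under 0.05, and 638 had an unadjusted p under 0.05. The smallest adjusted p of limma was 0.655, shared by ID1, whose difference was 0.76 ± 0.116 (SE) and positive in both lines that received both agents. MAT2A had 0.79 ± 0.198 and an adjusted p of 0.711 by limma, and PNN 0.63 ± 0.145 with the same adjusted p by limma. When the parental ceritinib array was left out, limma called 401 genes, 316 higher and 85 lower with ceritinib. Without that array the contrast no longer holds the parental pair, and its ceritinib arrays are those of LR2 and LR3 alone, so these calls do not describe parental cells. The model has no term for an agent difference that varies between lines, so its residual spread also holds such variation. The median difference of the ERK output genes, for example, was -0.02 in parental cells and 1.31 in LR2. The p-values therefore measure only the spread of these arrays around an additive model, part of which may be technical. They do not test the parental difference by itself.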

How the data were processed

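Total RNA of 8 cultures was amplified and biotin-labelled with a 3' IVT kit, per the labels' protocols. The authors deposited log2 signals per probe set, to 2 decimals, made with RMA per the submitters' processing notes; its software, version and the arrays normalized together are not given in the sources used here, and nor are batches. RMA brings the probe signals of arrays normalized together to 1 distribution, so a shift of all genes would not be fully seen. The medians of the deposited probe sets ran from 5.31 in untreated LR3 cells to 5.46 in LR2 cells with ceritinib. They were 5.36 in both parental inhibitor arrays.

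Of 49395 probe sets, 102 were controls, 1832 had several gene symbols and 2473 had none; 44988 remained, updated to RefSeq symbols through gene identifiers. Each gene was read from the brightest of its probe sets, by mean over the 8 arrays, and was used above a floor at the 50th percentile in at least 2 arrays. Differences were centred on the median of all genes. Genes past 1.5-fold were counted without a test. limma 3.58.1 (R 4.3.3), tested on simulated data, gave Benjamini-Hochberg adjusted p-values. Python 3.11.15 was used otherwise. Promoters came from RefSeq (GRCh38.p14).

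Genes were named as the 12 highest and 12 lowest above the floor with both agents, ALK, its partner receptors and main ERK targets in any case, and up to 4 members past 1.5-fold of each of 40 lists. Members of the ERK, cholesterol, FOXO, ATF4, lysosome, aryl hydrocarbon receptor and immediate early lists could be named by value. Other named genes (such as the splicing, histone, mitochondrial, arrestin, heat shock and TGF-beta genes) were picked after their values were seen. The members and lists were chosen with earlier results of these data known. Alternatives covered scaling, probe sets, floors and leaving out each array.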

Additional observations from a re-analysis of the deposited data

Results flagged for a closer look

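FGFBP1, the fibroblast growth factor binding protein, differed between ceritinib and crizotinib in opposite directions in the 2 lines that received both agents. Ceritinib minus crizotinib was -0.59 in parental cells, from 7.99 to 7.38, and 0.66 in LR2 cells, from 8.02 to 8.76. It was the only gene past 1.5-fold in both lines with opposite signs. Each line has 1 array per agent, and the difference between the lines was not tested.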

How the results depend on the processing

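The SD between the 2 parental inhibitor arrays was 0.143 and lay between 0.122 and 0.165 over all alternatives. The 38 genes past 1.5-fold became 80 without a floor and 17 with a floor at the 75th percentile, where 17 of 17 were shared with the 38. Genes higher with ceritinib (29) became 52 without a floor, 13 with the stricter floor and 19 when both arrays had to be above it. Genes lower with ceritinib (9) became 28 without a floor, 4 with the stricter floor and 5 with the mean of all probe sets. The fewer or more genes tested account for the floor settings by construction, and for the mean of probe sets the cause was not tested. Without centring, with quantile normalization and with an intensity curve removed, the total stayed between 38 and 40 genes, 37 or 38 of them shared. With the mean of all probe sets it was 28 genes, 21 of them shared among 30 of the 38 still tested, and with the median of probe sets 27 genes, 21 of them shared among 29. HNRNPM turned to -0.02 when probe sets with cross-reactive suffixes were left out and to -0.02 with the median of its probe sets. Over 61 named genes and 554 alternative values, 530 changed by less than the gene's residual SD in limma, 22 moved further and 2 reversed. A reversal was counted only for genes past 1.5-fold, so a smaller difference could change sign and stay among the 530. That SD also holds differences between the lines, which makes it a wide limit for some genes. limma called between 0 and 401 genes when single arrays were left out, and 0 under its other alternatives. Centring on tested genes and the median of probe sets were alternatives chosen after seeing the data. The agents were paired within lines by the line term of limma, and with the 4 inhibitor arrays of parental and LR2 cells alone it called 0 genes (243 at an unadjusted p under 0.05). A block on replicate numbers could not be fitted, since the labels carry none. The number of arrays, and signals near background, limit what these values show.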
